A study of Rattus norvegicus with 8 samples.

Results

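The genes described here encode the proteins that fold, glycosylate and inspect newly made secretory and membrane proteins in the endoplasmic reticulum (ER), together with the signaling proteins of the unfolded protein response. They were chosen by gene symbol as a list of 50 known genes, with earlier results of these data known. Every probe set annotated to a listed symbol was taken. Of the 50 genes, 49 were measured by 66 probe sets, out of 14217 genes and 31042 probe sets on the array. Ern1 (IRE1) had no probe set annotated to it alone and was not analysed here. Of the 49 genes, 37 had 1 probe set and 12 had several, and for each gene the probe set that was brightest on average over the 8 arrays was used.

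Proteins that enter the ER are bound by chaperones of the Hsp70 and Hsp90 families, receive a preassembled N-linked glycan from the oligosaccharyltransferase, and are folded with the help of lectin chaperones and protein disulfide isomerases. Chains that fail to fold are moved back to the cytosol and destroyed, a route called ER-associated degradation. When unfolded chains accumulate, the ER membrane sensors Ern1, Eif2ak3 (PERK) and Atf6 activate transcription factors, among them Xbp1 and Atf4, that raise the expression of chaperones and degradation genes. Atrial cardiocytes are muscle cells that also make and store natriuretic peptide hormones in secretory granules, and they are known for a more extensive rough ER than ventricular cardiocytes.

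Atrial appendages and ventricular free walls were taken from 13 normal Sprague Dawley rats, all male and weighing 225 to 275 g. The methods name the left side of the heart. RNA came from 4 atrial pools and 4 ventricular pools, and each pool was hybridized to 1 Affymetrix rat genome array, from 10 μg of total RNA. Which rats entered which pool is not stated, so a replicate is a pool of tissue from several animals and the p-values measure the spread between pools. The values are log2 signal intensities, in which a difference of 1 is a doubling. They ranged from 1.9 to 13.77 over the whole array, and the median of every array lay at 4.8 or 4.81. Differences are atrium minus ventricle. A gene was called when its adjusted p by limma was under 0.05, and all 31042 probe sets entered both the variance moderation of that linear model and the adjustment. The stricter criterion, after the thresholds of the study methods, was an adjusted p under 0.0001 with a fold of at least 1.8. As a check of the labels, all 6 atrial muscle markers were higher and all 5 ventricular muscle markers were lower in the atria, among them sarcolipin (Sln, a difference of 7.94) and the ventricular myosin light chain Myl2 (a difference of -5.03). Atrial pools 1 and 4 held more of the ventricular transcripts Myl2, Myl3 and Fhl2 than the other atrial pools. For Myh7 and Irx4 this held for pool 4 and not for pool 1. Myl2 was at 10.48, 4.32, 6.82 and 11.30 in atrial pools 1 to 4, against 13.23 to 13.30 in the ventricular pools.

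Elements known to link genes to the unfolded protein response have matches close to the start sites of some of the listed genes. They are shown because the genes that carry them can then be followed through the results. Windows from 250 bases before to 50 bases after the RefSeq start site (assembly GRCr8) were given for 42 of the 50 genes and searched on both strands. The ER stress element (ERSE), known in mammals as a site for NF-Y and Atf6 or Xbp1, was searched as CCAAT followed, after 9 bases of any kind, by CCACG. It occurred in 7 of the genes, in 0.145% of the 11733 array genes with a window and in 0.0657% of all 33469 windows. The 8 matches of these 7 genes follow, each with 5 flanking bases on either side and with the fixed letters of the element in capitals.
Hspa5, chr3:38452968-38452996 (+): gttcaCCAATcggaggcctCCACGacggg
Hsp90b1, chr7:23012446-23012474 (-): caaacCCAATcgaaaggagCCACGcttcg
Hsp90b1, chr7:23012342-23012370 (+): acccaCCAATcgtgcctcaCCACGcactc
Creld2, chr7:121789234-121789262 (-): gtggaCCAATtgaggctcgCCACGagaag
Dnajc3, chr15:102432529-102432557 (+): caaagCCAATcagcgccaaCCACGaccca
Calr, chr19:40213130-40213158 (-): ctgggCCAATcagggtcgaCCACGcgttg
Canx, chr10:35158064-35158092 (-): cttgtCCAATcatcacgctCCACGaagaa
Xbp1, chr14:84604553-84604581 (+): acaggCCAATcgcagacggCCACGaccct

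A related element, ERSE-II, was searched as ATTGG and CCACG with 1 base of any kind between them and occurred in Hyou1, Dnajb11 and Herpud1, against 0.0938% of array genes and 0.0508% of all windows. Its matches are printed in the same way, with 9 flanking bases on either side.
Hyou1, chr8:53602685-53602713 (-): tggctgcggATTGGcCCACGtcacggttc
Hyou1, chr8:53602785-53602813 (-): cacgtccccATTGGgCCACGtagaagacc
Dnajb11, chr11:91672791-91672819 (-): caggcggcgATTGGcCCACGcctggctgc
Herpud1, chr19:10614812-10614840 (-): cgggcgctgATTGGgCCACGttgggcact

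The Xbp1 and Atf6 site called UPRE, searched as TGACGTGG, occurred in Hyou1, Dnajc10 and Vcp, against 0.895% of array genes. In Hyou1 it overlapped an ERSE-II match. The C/EBP-ATF composite site, a site of Atf4 with a C/EBP partner, was searched as TTGCATCA and occurred in Herpud1 and Chac1, against 0.665% of array genes. A match is a description of the letters in the window and was not tested for binding.

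**Figure D1:**
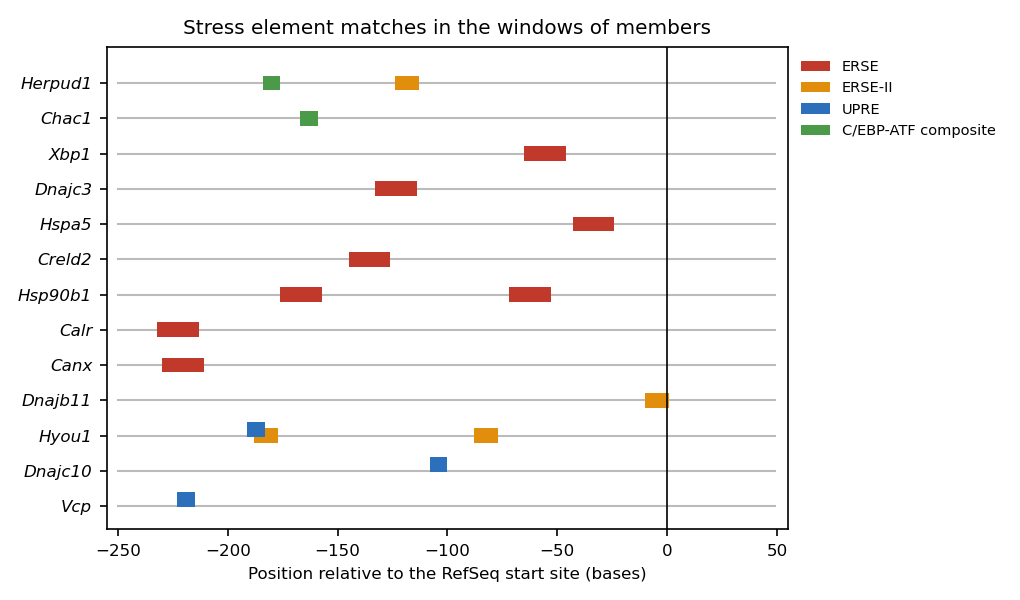
Positions of stress element matches in the windows of 13 listed genes, in bases relative to the RefSeq start site (vertical line at 0); each grey line is 1 gene and each block 1 match, colored by element. The ERSE of Hspa5 begins 43 bases before the start site and that of Calr 232 bases before it.

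In the atria, 38 of the 49 genes (77.6%) were higher and 1 (2.04%) was lower, and the remaining 10 were not called, against 22.5% higher and 22.5% lower over all 14217 genes. The median difference was 0.45, or 1.36 fold, with quartiles of 0.29 and 0.66, against a median of -0.04 over all genes. The direction was shared by nearly the whole list, since 45 differences were above 0 and 4 below it, whereas 44.2% of all genes had a difference above 0. The fold changes were moderate. Only 2 of the 49 genes, Pdia6 and Asns, met the stricter criterion in the atria, against 3.37% of all genes. In 36 of the 49 genes every atrial pool lay above every ventricular pool, against 22.2% of all genes, and in 1 gene every atrial pool lay below, against 21.9%. Read over all 66 probe sets of the list, 46 were higher and 1 lower, against 18.6% and 20.1% of all probe sets.

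The listed genes were bright on the array, with a mean log2 intensity of at least 6 in 41 of 49. Among the 7060 genes as bright as this, 31.4% were higher in the atria. Over the 38 genes called higher, 36 had atrial and ventricular pools that did not overlap, and the exceptions were Herpud1 and Ppp1r15a. Over all 14217 genes these counts were close as well. There 3193 were called higher, and 3152 had every atrial pool above every ventricular pool. The separation is thus no result beyond the call. The median over the 49 genes, relative to their ventricular means, was 0.47, 0.50, 0.42 and 0.43 in atrial pools 1 to 4, against 0.03, -0.01, -0.03 and -0.02 in the ventricular pools. Each atrial pool thus showed the difference to a similar extent, including pools 1 and 4 with their ventricular transcripts. Without atrial pools 1 and 4 the median stayed at 0.45 and 37 genes were higher.

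**Figure D2:**
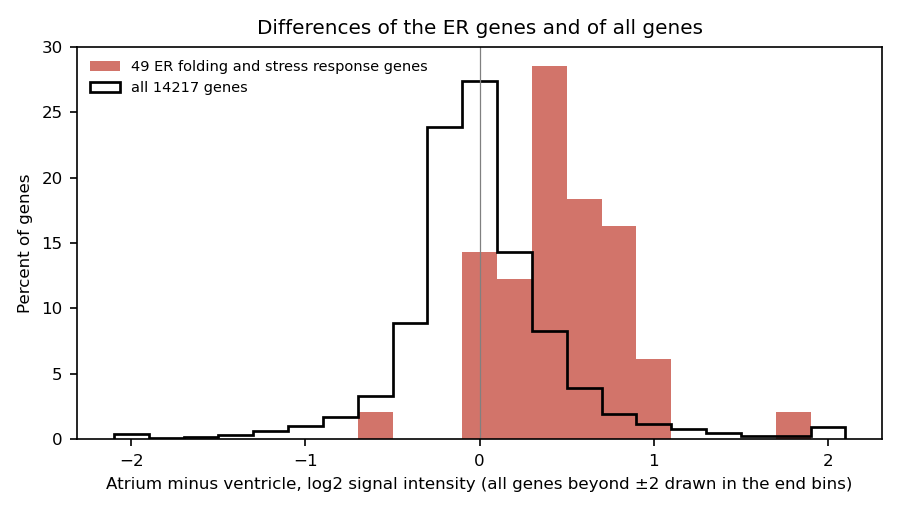
Distribution of the difference between atrium and ventricle (horizontal axis, log2 signal intensity) for the 49 listed genes (filled) and all 14217 genes (outline), each as a percent of its genes. The listed genes centre on 0.45 and all genes on -0.04.

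Calls were most uniform among the enzymes of glycan transfer and among the listed disulfide and prolyl isomerases. All 6 oligosaccharyltransferase subunits, with a median difference of 0.58, and all 8 disulfide and prolyl isomerases, with a median of 0.44, were higher in the atria. So were 9 of 10 genes of the Hsp70 chaperone system (median 0.59) and 6 of 8 genes of ER-associated degradation (median 0.38). Of the 5 genes of the lectin chaperone cycle 3 were higher (median 0.19). The signaling genes were mixed. Of the 8 measured sensors and transcription factors, 4 were higher, 3 were not called and 1 was lower. Of the 4 targets of Atf4 and Chop 2 were higher. Over all genes 22.5% were higher and 22.5% lower, and each group here holds only 4 to 10 genes.

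**Figure D3:**
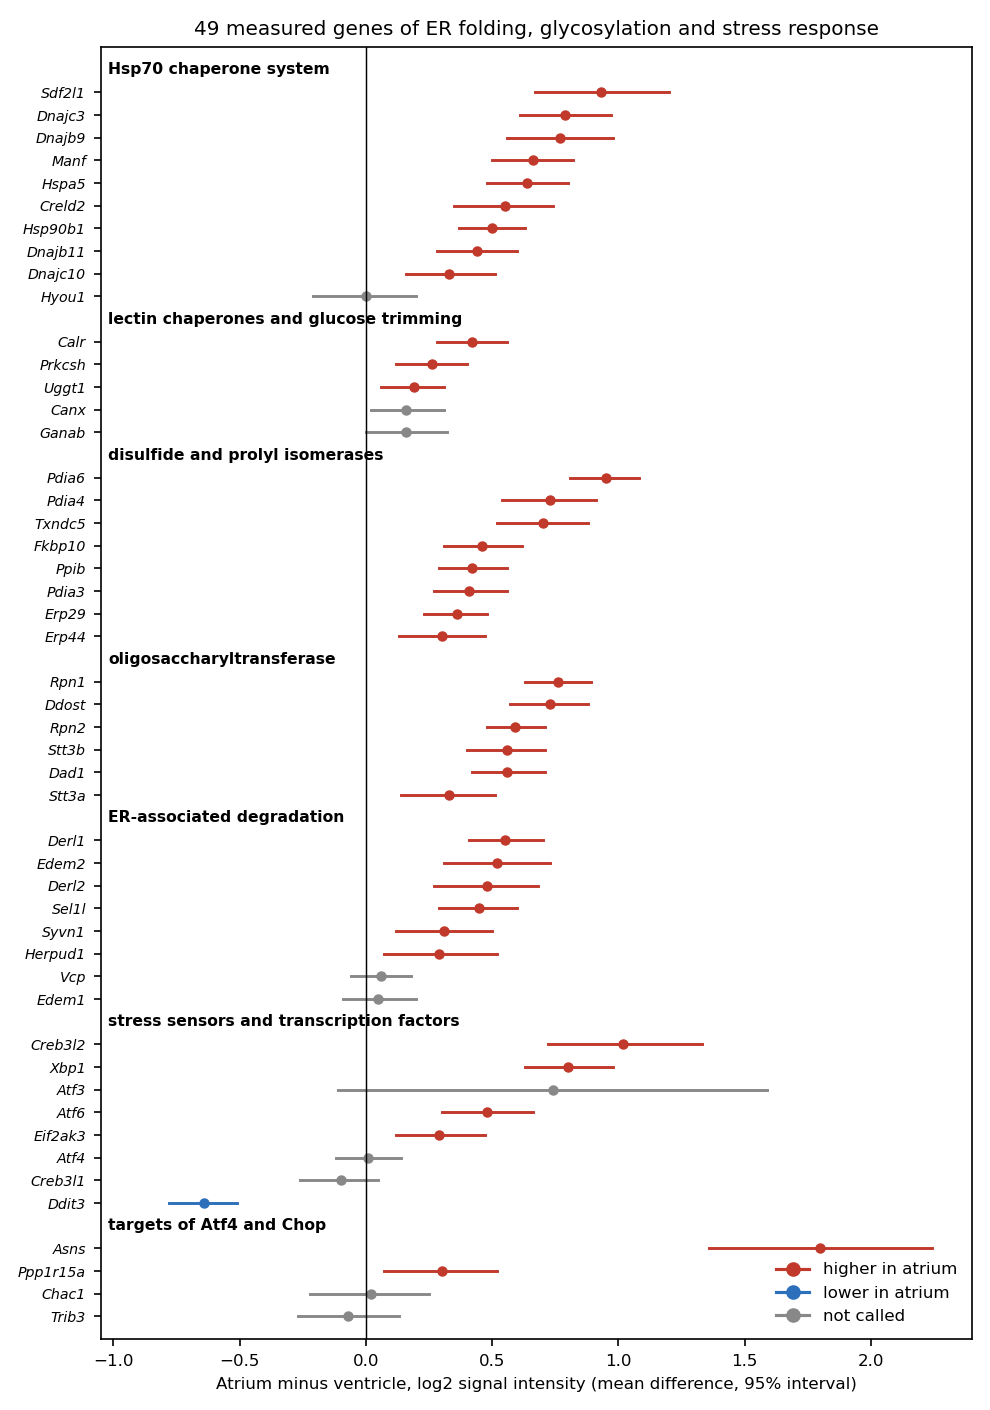
Difference between atrium and ventricle of each of the 49 genes (points, log2 signal intensity) with its 95% interval (lines), grouped by role and colored by call. Nearly all points lie to the right of 0, Ddit3 is the gene called lower, and the intervals of Hyou1, Vcp, Edem1 and Atf4 include 0.

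Hspa5 (BiP), the Hsp70 of the ER lumen, had log2 intensities of 10.70, 10.69, 10.72 and 10.50 in the atrial pools, against 10.05, 9.95, 9.95 and 10.11 in the ventricular pools. The difference was 0.64 (SE 0.07, adjusted p = 4.6e-05), or 1.56 fold. All 4 atrial pools lay above the ventricular pools, the nearest being atrial pool 4. Hsp90b1 (Grp94), the Hsp90 of the ER, was at 10.58, 10.60, 10.56 and 10.51 in the atria, against 10.14, 10.03, 10.03 and 10.06 in the ventricles, a difference of 0.50 (SE 0.06, adjusted p = 6e-05). The pools of each tissue stood within a narrow band and apart from the other tissue.

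The J proteins that bring clients to Hspa5 and stimulate its ATPase were likewise higher. Dnajc3 (p58IPK) was at 7.83, 7.71, 7.59 and 7.66 in the atria, against 7.05, 6.96, 6.84 and 6.78 in the ventricles, a difference of 0.79 (SE 0.08, adjusted p = 2.2e-05). Dnajb9 (ERdj4) was at 8.96, 9.11, 9.07 and 8.67 in the atria, against 8.27, 8.16, 8.14 and 8.17 in the ventricles, and differed by 0.77 (SE 0.09, adjusted p = 8.4e-05). Neither gene showed overlap between the tissues. Dnajb11 (ERdj3) and Dnajc10 (ERdj5), which also reduces disulfide bonds, differed less, by 0.44 and 0.33 (adjusted p = 0.00066 and 0.0075). For Dnajc10 another probe set gave 0.25 (adjusted p = 0.0093), and without atrial pools 1 and 4 its adjusted p was 0.057 at a difference of 0.26.

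Sdf2l1, a partner of the ER J proteins, had the largest difference of the Hsp70 group. It was at 7.97, 7.69, 7.59 and 7.41 in the atria, against 6.95, 6.64, 6.58 and 6.74 in the ventricles, which gave 0.93 (SE 0.12, adjusted p = 0.00012), or 1.91 fold. The spread among atrial pools was also the largest of this group, with pool 1 the highest and pool 4 the lowest. Manf, a secreted ER stress protein that binds Hspa5, was at 9.38, 9.27, 9.24 and 9.13 in the atria, against 8.71, 8.63, 8.51 and 8.55 in the ventricles (a difference of 0.66, SE 0.07, adjusted p = 4.7e-05). Creld2, a stress-induced ER protein, was at 7.28, 7.17, 7.18 and 7.21 in the atria, against 6.84, 6.77, 6.6 and 6.43 in the ventricles (0.55, SE 0.09, adjusted p = 0.00063). In both genes the lowest atrial pool lay above the highest ventricular pool.

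Hyou1 (Grp170), the nucleotide exchange factor of Hspa5, stood apart from its partners. Its values were 7.38, 7.30, 7.44 and 7.16 in the atria, against 7.42, 7.27, 7.11 and 7.49 in the ventricles, and the pools of the tissues overlapped throughout. The 95% interval of the difference ran from -0.21 to 0.20 (adjusted p = 0.97), which does not reach the difference of Hspa5. Its other probe set gave 0.13 (adjusted p = 0.19). By the probe set used, genes with matches of the same element did not all share a call, and of all 49 genes 77.6% were higher. Of the genes with an ERSE, Hspa5, Hsp90b1, Dnajc3, Creld2, Calr and Xbp1 were higher in the atria and Canx was not called. The other probe sets of Canx, at 0.45 and 0.24, were called higher, so the exception among the ERSE genes rests on the probe set read. Of those with an ERSE-II, Dnajb11 and Herpud1 were higher and Hyou1 was not called, and of those with a UPRE, Dnajc10 was higher while Hyou1 and Vcp were not called.

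**Figure D4:**
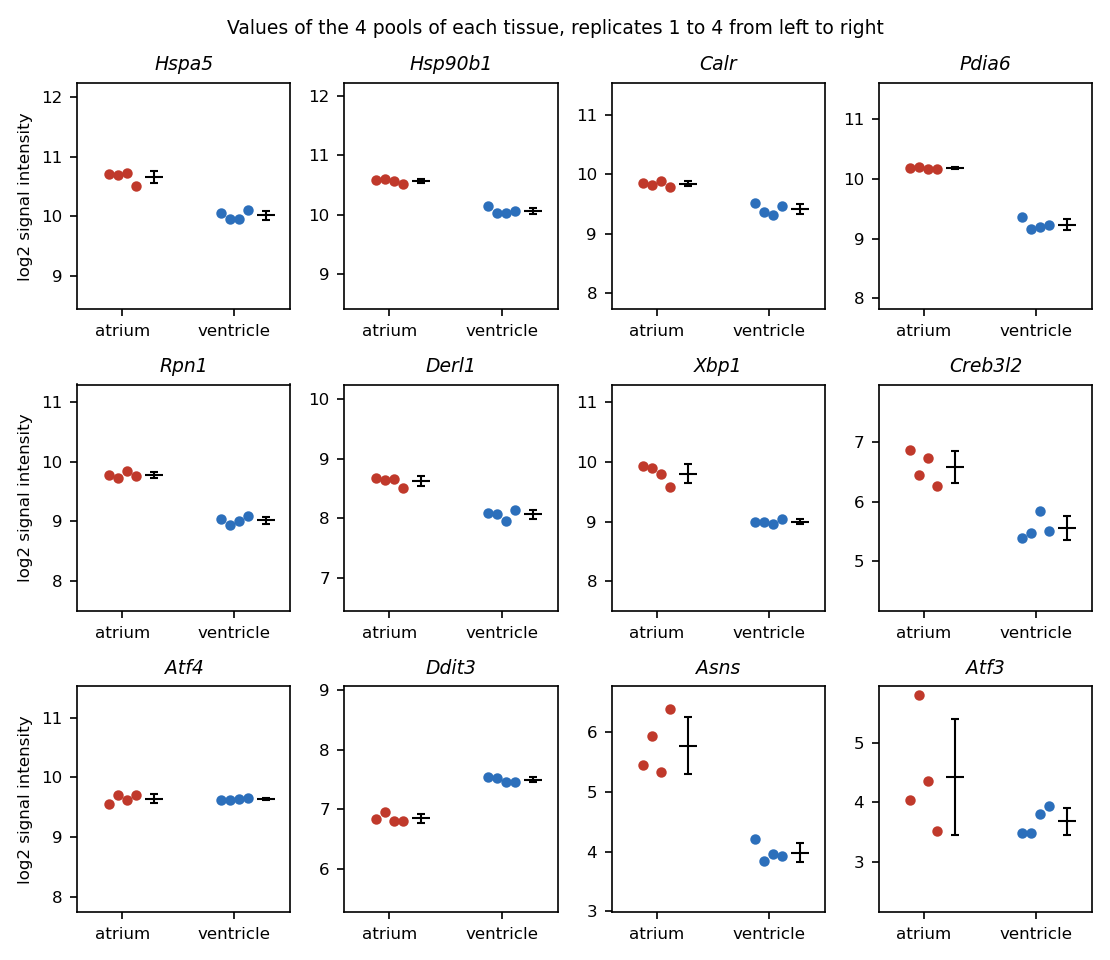
Log2 signal intensity of 12 genes in each pool (points, replicates 1 to 4 from left to right, atrium left of ventricle), with the mean and SD of the 4 pools beside them; every panel spans the same log2 range. The pools of the tissues are separate for Hspa5, Hsp90b1, Calr, Pdia6, Rpn1, Derl1, Xbp1, Creb3l2, Asns and, in the other direction, Ddit3, and they overlap for Atf4 and Atf3.

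In the lectin cycle, calreticulin and calnexin hold glycoproteins that carry a single glucose while they fold. Calr was at 9.86, 9.82, 9.89 and 9.79 in the atria, against 9.52, 9.36, 9.32 and 9.46 in the ventricles, a difference of 0.42 (SE 0.06, adjusted p = 0.00042). Its membrane-bound counterpart Canx was at 9.96, 9.96, 9.93 and 9.75 in the atria, against 9.70, 9.76, 9.77 and 9.71 in the ventricles, a difference of 0.16 with a 95% interval from 0.02 to 0.31 that did not pass (adjusted p = 0.073). Atrial pool 4 was the low value of Canx and fell among the ventricular pools. Without that pool Canx differed by 0.21 and passed (adjusted p = 0.014), and the other probe sets of Canx, at 0.45 and 0.24, passed as well (adjusted p = 0.00083 and 0.008). Each of the 3 probe sets of Canx thus had a positive difference, while the call rested on which was read.

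The enzymes that put on and take off that glucose differed little. Uggt1, the folding sensor that adds the glucose back, differed by 0.19 (adjusted p = 0.022) and lost its call without atrial pool 2 (adjusted p = 0.06), ventricular pool 4 (adjusted p = 0.057), or atrial pools 1 and 4 together (adjusted p = 0.057). The call was also lost under quantile normalization (adjusted p = 0.053), with the trended and robust prior (adjusted p = 0.078) and with the deposited replicate number as a block (adjusted p = 0.061). Of the subunits of glucosidase II, which removes glucose, Prkcsh was higher by 0.26 (adjusted p = 0.0075), and its call was lost under quantile normalization (adjusted p = 0.053). The catalytic subunit Ganab, at 0.16, did not pass (adjusted p = 0.1).

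The disulfide isomerases make, break and rearrange disulfide bonds in folding proteins. Pdia6, which also binds Hspa5, was at 10.18, 10.20, 10.17 and 10.17 in the atria, against 9.36, 9.16, 9.20 and 9.22 in the ventricles. The difference was 0.95 (SE 0.06, adjusted p = 1e-06), or 1.93 fold, with an SD of 0.01 between the atrial pools. It had the lowest adjusted p of all 49 genes. Pdia4 was at 8.49, 8.35, 8.29 and 8.20 in the atria, against 7.75, 7.54, 7.66 and 7.47 in the ventricles (0.73, SE 0.08, adjusted p = 5.6e-05). Txndc5 was at 8.89, 8.87, 8.80 and 8.73 in the atria, against 8.15, 8.29, 7.95 and 8.10 in the ventricles (0.70, SE 0.08, adjusted p = 5.3e-05). No pool of either gene lay within the range of the other tissue.

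Pdia3 (ERp57), the isomerase that works with calreticulin and calnexin, was at 10.35, 10.16, 10.33 and 10.32 in the atria, against 9.95, 9.84, 9.83 and 9.89 in the ventricles, a difference of 0.41 (SE 0.06, adjusted p = 0.00055). Its other probe set gave 0.28 (adjusted p = 0.0034). The pools of Pdia3 did not overlap, and its difference was close to that of Calr and less than that of Pdia6. Erp29, an ER protein with a thioredoxin fold, was higher by 0.36 (adjusted p = 0.0006). Erp44, which retains partner proteins by disulfide exchange, was higher by 0.30 (adjusted p = 0.0099). Of its other probe sets 1 gave 0.46 (adjusted p = 0.0002) and the other 0.14 (adjusted p = 0.25), and without atrial pools 1 and 4 the adjusted p of Erp44 was 0.056. The prolyl isomerases of the ER, Ppib (cyclophilin B) and the collagen chaperone Fkbp10, were higher by 0.42 and 0.46 (adjusted p = 0.00028 and 0.00035).

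The oligosaccharyltransferase transfers the preassembled glycan to asparagine residues of the incoming chain. Rpn1 (ribophorin I), a subunit next to the translocation channel, was at 9.78, 9.73, 9.84 and 9.76 in the atria, against 9.03, 8.94, 9.0 and 9.08 in the ventricles, a difference of 0.76 (SE 0.06, adjusted p = 3.3e-06), or 1.70 fold. Ddost was at 9.41, 9.36, 9.39 and 9.29 in the atria, against 8.66, 8.47, 8.71 and 8.70 in the ventricles (0.73, SE 0.07, adjusted p = 1.6e-05). In both subunits the gap between the tissues was wider than the range within either.

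Rpn2 (ribophorin II) was at 9.70, 9.69, 9.73 and 9.72 in the atria, against 9.13, 9.11, 9.09 and 9.14 in the ventricles (0.59, SE 0.05, adjusted p = 9.4e-06). Dad1, the small subunit first known as a defender against cell death, was at 9.08, 9.09, 8.90 and 9.07 in the atria, against 8.53, 8.43, 8.51 and 8.43 in the ventricles (0.56, SE 0.07, adjusted p = 6.6e-05). These shared subunits differed by similar amounts, with atrial pool 3 the low value of Dad1. The catalytic subunits are Stt3a, which acts during translocation, and Stt3b, which can also act after it. Stt3b was at 9.19, 9.06, 9.15 and 8.96 in the atria, against 8.51, 8.47, 8.54 and 8.61 in the ventricles, a difference of 0.56 (SE 0.07, adjusted p = 0.0001), and its other probe set gave 0.84 (adjusted p = 7.6e-05). Stt3a differed by 0.33 (adjusted p = 0.011), but its other probe set, at 0.07, did not pass (adjusted p = 0.64).

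In ER-associated degradation, the Derlins form part of the channel through which misfolded proteins leave the ER. Derl1 was at 8.68, 8.64, 8.66 and 8.50 in the atria, against 8.09, 8.07, 7.96 and 8.14 in the ventricles (0.55, SE 0.07, adjusted p = 8.8e-05). Its other probe sets gave 0.81 and 0.69, so all 3 were higher. Derl2 was higher by 0.48 (adjusted p = 0.002), while its other probe set, at 0.07, did not pass (adjusted p = 0.47). The ubiquitin ligase Syvn1 (Hrd1) was higher by 0.31 (adjusted p = 0.016) and its adaptor Sel1l by 0.45 (adjusted p = 0.00057).

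Edem2, a mannosidase that marks glycoproteins for degradation, was at 5.86, 5.82, 5.50 and 5.62 in the atria, against 5.33, 5.26, 5.05 and 5.10 in the ventricles (0.52, SE 0.10, adjusted p = 0.0016). Its relative Edem1 did not pass, at 0.05 with a 95% interval from -0.09 to 0.20 (adjusted p = 0.55), and the other probe sets of Edem1 both gave -0.03. Vcp (p97), the cytosolic ATPase that extracts the chains and also serves many pathways outside the ER, was at 10.60, 10.68, 10.64 and 10.66 in the atria, against 10.60, 10.58, 10.57 and 10.59 in the ventricles. The difference of Vcp was 0.06, with a 95% interval from -0.06 to 0.18 (adjusted p = 0.4). Both Edem1 and Vcp were measured with narrow intervals that lie below the 0.55 of Derl1.

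Herpud1, a stress-induced scaffold of the degradation complex with an ERSE-II match, was at 9.05, 8.96, 9.07 and 8.62 in the atria, against 8.62, 8.65, 8.51 and 8.75 in the ventricles. The difference of 0.29 (SE 0.10) only just passed (adjusted p = 0.04), and atrial pool 4 lay within the ventricular range. The call was lost on leaving out any of atrial pools 1 to 3 (adjusted p of 0.1, 0.086 and 0.11) or ventricular pools 1 to 3 (0.083, 0.071 and 0.11), with differences of 0.25 to 0.30. Cyclic loess, quantile normalization and the block by deposited replicate number lost it too (adjusted p = 0.067, 0.078 and 0.08).

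The signaling side of the response differed from gene to gene. Xbp1, whose mRNA is spliced by Ern1 to give the active factor, was at 9.93, 9.90, 9.79 and 9.58 in the atria, against 8.99, 9.0, 8.96 and 9.05 in the ventricles. The difference was 0.80 (SE 0.08, adjusted p = 2.2e-05), or 1.75 fold. The ventricular pools were nearly level while the atrial pools spread, with pool 4 the lowest. The spliced and unspliced forms of Xbp1 were not told apart by this value.

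Atf6, the sensor that is itself cleaved to a transcription factor, was at 7.63, 7.60, 7.70 and 7.58 in the atria, against 7.17, 7.35, 6.98 and 7.10 in the ventricles (0.48, SE 0.08, adjusted p = 0.00083). Its other, dimmer probe set gave 0.30 and did not pass (adjusted p = 0.06). Eif2ak3 (PERK), the kinase that slows translation under stress, was at 6.02, 6.14, 5.99 and 6.10 in the atria, against 5.58, 5.77, 5.81 and 5.92 in the ventricles (0.29, SE 0.08, adjusted p = 0.013). Both sensors thus had atrial pools above all ventricular pools, with a lesser gap in Eif2ak3.

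Creb3l2, an ER-anchored transcription factor that is released by cleavage and is known for control of secretory pathway genes in cartilage, had the largest difference of the sensors and transcription factors. It was at 6.87, 6.45, 6.73 and 6.27 in the atria, against 5.40, 5.48, 5.85 and 5.51 in the ventricles, a difference of 1.02 (SE 0.14, adjusted p = 0.00018), or 2.03 fold. The lowest atrial pool lay above the highest ventricular pool. Creb3l1, its relative known in bone, gave -0.10 and did not pass (adjusted p = 0.27).

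Atf4, the factor whose translation is raised by PERK signaling, was at 9.55, 9.70, 9.62 and 9.70 in the atria, against 9.62, 9.62, 9.64 and 9.65 in the ventricles. The difference was 0.01, with a 95% interval from -0.12 to 0.14 (adjusted p = 0.9), and its sign turned under cyclic loess and quantile normalization. Ddit3 (Chop), a factor induced downstream of Atf4 and known for promoting cell death, was the single gene called lower. It was at 6.83, 6.95, 6.8 and 6.81 in the atria, against 7.54, 7.52, 7.46 and 7.46 in the ventricles, a difference of -0.64 (SE 0.06, adjusted p = 1.3e-05). Every atrial pool of Ddit3 lay below every ventricular pool, and the call held under each alternative tried with values per gene.

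Among the targets of Atf4 and Chop, Asns (asparagine synthetase) was at 5.45, 5.94, 5.34 and 6.39 in the atria, against 4.21, 3.84, 3.96 and 3.93 in the ventricles. Its difference of 1.8 (SE 0.20, adjusted p = 4.5e-05) was the largest of the 49 genes. The ventricular mean of 3.98 lay under a log2 of 4, taken here as the low end of the intensities, so the fold is given against 4, as at least 3.44. Atrial pools 4 and 2 were the highest. The adipocyte markers showed the same order at the top, since Adipoq was at 5.76, 7.04, 6.51 and 8.09 in atrial pools 1 to 4, against 3.43 to 3.99 in the ventricular pools, and the part of adipocytes in the result was not tested. Without atrial pool 4 the difference of Asns was 1.60 (1.58 against 4), the lowest value on leaving out any pool.

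The other targets did not follow Asns. Trib3, a pseudokinase that restrains Atf4, gave -0.07 (adjusted p = 0.57), and its other probe sets gave -0.18 and 0.04. Chac1, a glutathione-degrading enzyme with a C/EBP-ATF match in its window, gave 0.02 (adjusted p = 0.91). Ppp1r15a (Gadd34), which restores translation, was at 7.57, 7.95, 7.76 and 7.60 in the atria, against 7.27, 7.35, 7.59 and 7.48 in the ventricles, and the ranges overlapped. Its difference of 0.30 passed (adjusted p = 0.038) but not without atrial pool 2 (0.22, adjusted p = 0.098), atrial pool 3 (adjusted p = 0.086), or ventricular pools 1, 2 or 4 (adjusted p = 0.1, 0.091 and 0.056). Cyclic loess (0.24, adjusted p = 0.076) and quantile normalization (0.23, adjusted p = 0.088) ended the call as well.

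Atf3, a stress factor induced by Atf4 and by many other signals, was at 4.03, 5.80, 4.35 and 3.51 in the atria, against 3.49, 3.49, 3.80 and 3.94 in the ventricles. It did not pass (0.74, SE 0.38, adjusted p = 0.15). The ventricular mean of 3.68 lay under the low end of 4, and against 4 the difference was 0.42. Without atrial pool 2, the highest, the atrial mean was 3.96 and lay under 4 as well, so no size is given there. Without atrial pool 4 Atf3 passed (adjusted p = 0.03), and without pools 1 and 4 together likewise (adjusted p = 0.0091). The immediate early gene Fos, which is induced within minutes of handling or stretch, was at 6.59, 8.37, 5.05 and 5.69 in the atria, against 3.76, 5.09, 4.48 and 4.73 in the ventricles. Pool 2 was again the highest, as it was for Ppp1r15a, and the part of such early induction in these values was not tested. Of 19 immediate early genes 4 (21.1%) were higher and 3 (15.8%) lower in the atria, shares that did not exceed the 22.5% of all genes in each direction. These counts compare the tissues and cannot show a rise confined to 1 pool.

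Other genes of the same pathways, taken from lists by known function, were compared in the same way. These lists too were chosen with earlier results of these data known, so their shares are a description and no independent evidence. Of 33 other ER folding enzymes 26 (78.8%) were higher and 3 (9.09%) lower (median 0.47), against 22.5% of all genes in each direction. The sulfhydryl oxidase Qsox1 (1.44), the prolyl isomerase Fkbp14 (1.28) and the peroxidase Prdx4 (0.99), which all act in the secretory pathway, had the largest differences of the list. P4hb, the principal disulfide isomerase, was higher by 0.40 (adjusted p = 0.00071), whereas the collagen chaperone Serpinh1 (Hsp47), at 0.09, did not pass (adjusted p = 0.23). The genes called lower were Pdia5 (-0.49), the oxidase Ero1a (-0.26), which reoxidizes the isomerases, and Pdia2, whose means lay under a log2 of 4 in both tissues.

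The steps of N-glycosylation differed in their counts. Of 16 other genes of the oligosaccharyltransferase and of glycan trimming, 12 were higher and none lower (median 0.51, with 4 that did not pass). Among them were the transferase subunits Tusc3 (1.15) and Ostc (1.12) and the ER lectin malectin, Mlec (1.07). Of 24 genes that assemble the glycan on its dolichol carrier, 6 were higher, 3 were lower and 15 did not pass (median 0.13). The share of that list called higher, 6 of 24, lay near the 22.5% of all genes. Alg5 (0.53), Dolk (0.31) and Dpm3 (0.27), which serve dolichol-linked sugar supply, led the higher genes, and Pmm2 (-0.40), Dpagt1 (-0.24) and Nus1 (-0.18) were lower.

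Of 26 other genes of ER-associated degradation 14 (53.8%) were higher and 3 (11.5%) lower (median 0.21). All genes stood at 22.5% in each direction. Selenos, a selenoprotein that binds Vcp at the ER membrane, was higher by 1.08 and the lectin Erlec1 by 0.58. Bag6 (-0.30), Ufd1 (-0.23), a cofactor of Vcp, and the conjugating enzyme Ube2j1 (-0.20) were lower. Of 41 other genes of the stress response 17 (41.5%) were higher, 2 (4.88%) lower and 22 did not pass (median 0.06). The 2 lower genes, Bcl2l11 (Bim, -0.78, adjusted p = 6.2e-05) and Bbc3 (Puma, -0.42, adjusted p = 0.0004), encode proteins that promote apoptosis. Other apoptosis genes of that list went otherwise, as Casp12 was higher (0.45, adjusted p = 0.0065) and Bak1 was not called (-0.13, adjusted p = 0.22). Outside the ER, 20 of 41 cytosolic and mitochondrial chaperones (48.8%) were higher and 11 (26.8%) lower (median 0.14). The share that was lower lay near that of all genes.

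**Figure D5:**
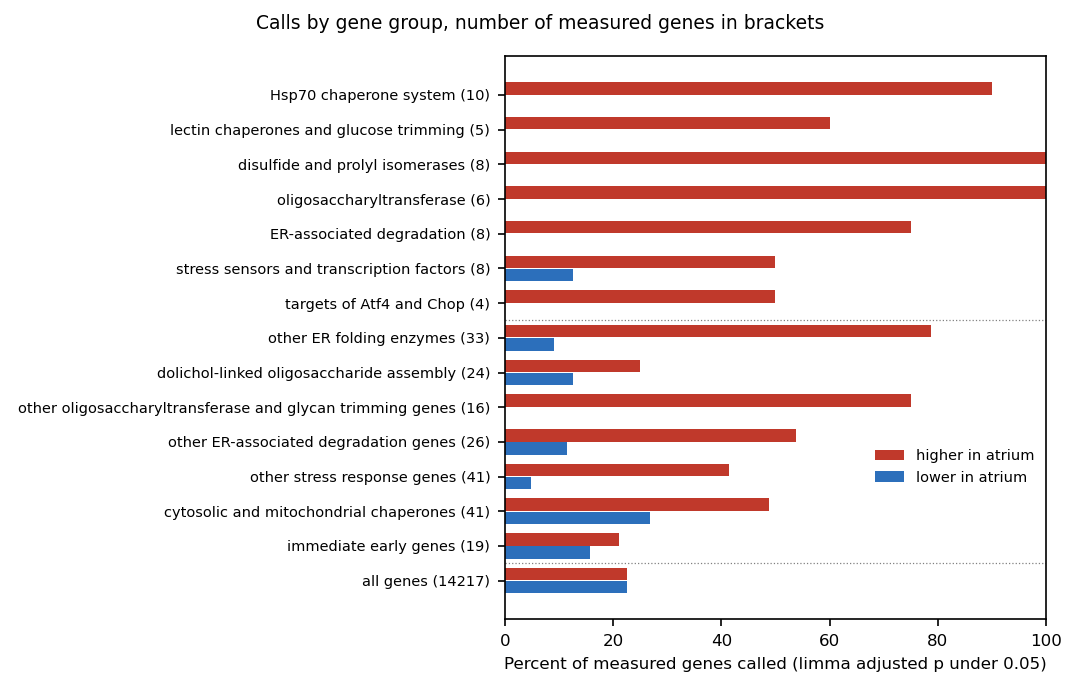
Percent of measured genes called higher (red) or lower (blue) in the atria, by limma at an adjusted p under 0.05, for the role groups of the 49 genes (top), the other lists of related genes (middle) and all 14217 genes (bottom). All genes stand at 22.5% in each direction, and dolichol-linked oligosaccharide assembly, with 6 of 24 genes higher, is close to that.

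The tissues differ in their cells, and in tissue RNA more cells of a type cannot be told apart from more RNA per cell. Several marker lists had most of their genes called higher, as the ER genes did, while all genes stood at 22.5% in each direction. Mesothelial markers were higher in 8 of 9, with summed linear signals of 1235 to 2312 in the atrial pools, against 220 to 244 in the ventricular pools. Fibroblast markers were higher in 10 of 13 (median 0.39), with sums of 18790 to 21826 in the atria, against 15018 to 17152 in the ventricles. Adipocyte markers were higher in 5 of 8, with sums of 1714 to 5680 in the atria, against 2349 to 2559 in the ventricles. The adipocyte sums of atrial pools 1 and 3 (1714 and 2264) lay under every ventricular pool. Fabp4, the brightest of these markers, weighs most in the sums and was not called (-0.19). It was at 10.38 and 10.71 in those pools, against 11.03 to 11.19 in the ventricular pools. The 5 markers called higher had every atrial pool above every ventricular pool. The median of the markers, relative to their ventricular means, was 0.81, 2.78, 2.10 and 3.98 in atrial pools 1 to 4. Lep was under a log2 of 4 in both tissues.

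Other lists moved the opposite way. Endothelial markers were lower in 8 of 11, with sums of 3410 to 3591 in the atria, against 4694 to 5149 in the ventricles. All 10 pericyte and smooth muscle markers were lower, with sums of 1391 to 1516 in the atria, against 2771 to 2832 in the ventricles. Leukocyte markers (4 higher and 3 lower of 13) and markers of neurons and glia (3 higher and 2 lower of 10) had overlapping sums. Plasma cells have an extensive ER. Of their 6 measured markers, Mzb1 was higher by 1.18 (adjusted p = 3.9e-06) and Prdm1 was lower (-0.83, adjusted p = 3.8e-05). Mzb1 encodes an ER cochaperone of B lineage cells. Jchain, Tnfrsf17 and Pou2af1 were under a log2 of 4 in both tissues, and the sums of the list were 119 to 132 in the atria, against 113 to 126 in the ventricles. The part of mesothelial cells, fibroblasts, adipocytes and plasma cells in the differences of the ER genes was not tested.

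Among the 38 genes called higher, atrial pool 1 was the highest atrial pool in 16 and atrial pool 4 the lowest in 18, and both held in 9, among them Sdf2l1, Manf and Pdia4. The same ranks were not counted over all genes, so these counts have no background to be read against. The summed mesothelial markers were highest in atrial pool 1 (2312) and lowest in atrial pool 4 (1235). The fibroblast sum was lowest in pool 1 (18790) and highest in pool 4 (21826). A link between the ER genes and either sum was not tested. Within the atria the pools differed little over the ER genes. Over the 49 genes the SD between pools had a median of 0.0915 for the atria and 0.0902 for the ventricles, well under the median difference of 0.45.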

How the data were processed

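RNA of 4 atrial and 4 ventricular pools was measured on 8 arrays. The authors summarized the probe intensities by RMA (named in the submitters' processing notes, version not stated), which adjusts the background, quantile-normalizes the arrays and summarizes each probe set. What they deposited are log2 signal intensities of 31042 probe sets, which were not scaled again. The normalization acts on probes and makes differences relative to all transcripts. It leaves the probe set values of the arrays with distributions that are not identical, so a further quantile normalization was an alternative. Precision is limited by the 4 arrays per tissue. No scan dates or other batches were in the values used.

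Probe sets were compared with limma 3.58.1 in R 4.3.3 (lmFit and eBayes) on all 8 arrays, without covariates, and p-values were adjusted over every probe set after Benjamini and Hochberg. SAM, the test of the study methods, was an alternative. The procedure was tested on simulated data. Gene names follow the platform annotation, in which 20826 probe sets carry 1 symbol, 436 several and 9780 none. Promoter windows come from RefSeq (GRCr8). Plots used Python 3.11.15 and matplotlib 3.10.9.

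The listed genes and the other lists were chosen with earlier results of these data known. All 8 values are given for genes with an adjusted p under 0.05 and a difference of at least 0.5, and for Hspa5, Calr, Canx, Pdia3, Rpn1, Vcp, Xbp1, Atf4, Atf6, Eif2ak3 and Ddit3 whatever their result. From the other lists at most 3 called genes in each direction are named, besides P4hb, Serpinh1, Fos, Casp12, Shmt2, Slc3a2, Mthfd2 and the muscle markers. The values of Hyou1, Herpud1, Ppp1r15a, Atf3, Adipoq and Fabp4 were added after they had been seen. So were those of Casp12, Bak1, Shmt2, Slc3a2 and Mthfd2.

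Alternatives were SAM, a trended and robust limma prior, replicate numbers as a block, cyclic loess, centring of each array on its median, quantile normalization, omission of the dimmest 40% of probe sets, other choices of probe set, each array left out in turn, and atrial replicates 1 and 4 left out together.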

Additional observations from a re-analysis of the deposited data

Results flagged for a closer look

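In 98 groups of 4 pools, 1 for each of the 49 genes in each tissue, 6 had a single pool far from the other 3, by a criterion that chance meets in about 1 of 20 groups. In the atria, Hspa5 in pool 4 was at 10.5, against 10.69 to 10.72 in the other atrial pools, and Canx in the same pool was at 9.75, against 9.93 to 9.96. Dad1 in atrial pool 3 was at 8.9, against 9.07 to 9.09, and Ddit3 in atrial pool 2 was at 6.95, against 6.8 to 6.83. In the ventricles, Edem1 in pool 2 was at 6.93, against 7.13 to 7.17 in the other ventricular pools. Chac1 in ventricular pool 2 was at 4.91, against 4.83 to 4.84.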

How the results depend on the processing

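Under 20 alternatives, 34 to 40 of the 49 genes were higher in the atria by limma and 1 was lower in each. SAM at its false discovery rate of 0.01% called 27 higher. Over all 66 probe sets 46 were higher. Of 881 values of a gene under an alternative, 850 kept their call, 25 lost it, 6 gained it and none among called values reversed. The same call was kept under every alternative by 41 genes, 32 of them among the 38 higher. The count past the stricter criterion moved, from 2, to 4 with SAM, with the trended and robust prior and without atrial replicates 1 and 4, and to between 1 and 6 on leaving out each pool, with 6 without atrial pool 4 and 1 without atrial pool 2 or any single ventricular pool. Quantile normalization also gave 2863 genes of the array higher and 3369 lower, against 3193 and 3198 as deposited. The median difference was 0.39 after it and 0.43 to 0.47 on leaving out each pool.

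With the deposited replicate number as a block, 36 genes were higher and 1 passed the stricter criterion. With atrial numbers 3 and 4 exchanged, as in the columns of the study supplement, the block gave 38 and 2. Residuals of pools with the same deposited number correlated from -0.188 to 0.155. With the exchanged numbers all 4 pairs were positive, at 0.134, 0.155, 0.225 and 0.278, a hint of pairing from the data and not from the design. As no label says that pools are paired, the report uses the fit without a block.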

Other observations

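Among the other stress response genes, Psat1 and Phgdh, enzymes of serine synthesis, had large differences and were singled out after their values had been seen. Psat1 was at 5.16, 5.75, 5.19 and 6.57 in the atria, against 4.22, 3.85, 4.04 and 4.02 in the ventricles (a difference of 1.63, SE 0.26, adjusted p = 0.00059 by limma). Phgdh was at 5.31, 5.68, 5.37 and 6.45 in the atria, against 4.57, 4.28, 4.56 and 4.48 in the ventricles (1.23, SE 0.21, adjusted p = 0.00095). Atrial pools 4 and 2 were the highest in both, as for Asns and for the adipocyte marker Adipoq, and the part of adipocytes was not tested. Other genes of that list known as targets of Atf4 were split. Among those not called were Slc7a5 (0.01, adjusted p = 0.91), Sesn2 (-0.18, adjusted p = 0.17) and Wars1 (-0.06, adjusted p = 0.37). Among those called higher were Shmt2 (0.55, adjusted p = 0.00025), Slc3a2 (0.47, adjusted p = 0.0004) and Mthfd2 (0.38, adjusted p = 0.0061).

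The stress gene Nupr1 was at 7.60, 6.79, 7.74 and 7.71 in the atria, against 6.09, 4.45, 6.32 and 6.37 in the ventricles (1.65, adjusted p = 0.0064), and pool 2 was the low value in each tissue. Among the chaperones outside the ER, the small heat shock proteins were split. Hspb1 (0.69, adjusted p = 0.003) and Hspb3 (0.67) were higher, and Hspb7 (-0.91) and Hspb6 (-0.83, adjusted p = 1.3e-06) were lower in the atria. Hsph1, a cytosolic relative of Hyou1, was higher by 0.67 (adjusted p = 1.9e-05), and the J protein Dnajb5 was lower (-0.93).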
